A study of Mus musculus with 37 samples.

Results

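Collagen genes were described in bulk RNA sequencing of mouse heart after cardiac arrest. A gene counted as a member when its symbol had the form of a collagen chain (Col, a type number, a, a chain number) and its mean over the 37 libraries was at least 0.2 FPKM (fragments per kilobase of gene, scaled by the depth of the library, a level per length). Of the 44 collagen genes among the 56748 genes of the table, 29 met that level and 15 did not. The members nearest above the limit were Col11a2 with a mean of 0.224 FPKM and Col4a6 with 0.240 FPKM, and the gene nearest below it was Col9a2 with 0.117 FPKM. Chains of cartilage and skin collagens such as Col2a1 (0.00843 FPKM) and Col7a1 (0.0394 FPKM) were among the 15 left out.

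The mice were C57BL/6J of both sexes, 8 to 10 weeks old per the study's methods, and isoflurane was given to all of them. Naïve mice (5 libraries) had neither intubation nor injection. Adr mice, called sham in the sample labels, were intubated, received 40 µL of saline into the left ventricle through a needle guided by ultrasound and, 8 min later, 500 µL of adrenaline at 15 µg/mL by the same route. Arrest mice received 0.5 M potassium chloride in place of the saline, which stopped the heart for 8 min, and were resuscitated with the same adrenaline and with chest compressions. Hearts were taken 0.5, 1, 3 or 7 days later, with 4 libraries in each of the 8 Adr and Arrest groups. Adr and Arrest therefore share the injection and the adrenaline, and the Arrest groups alone had potassium chloride, asystole and compressions, which cannot be told apart here. The methods state that the apex was discarded and that RNA came from 50 mg of left ventricle. The labels number the libraries within a group and do not say that each came from another mouse, so the p-values measure the spread between these libraries.

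Libraries held 13.2 to 30.2 mega (M) fragments on genes, and the share of these fragments on mitochondrial genes was 20.8 to 30.9% in 36 libraries. Adr 3-day replicate 3 stood apart with 9.36%, and its summed level of 11 cardiomyocyte markers was 3829.5 FPKM against 7372 to 16236 FPKM in the other 36. The study left out 1 Adr 3-day sample of poor quality that the labels do not identify. Every count of called collagen genes is therefore given with all 37 libraries and without Adr 3-day replicate 3.

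Collagens are proteins of 3 chains wound into a triple helix, and they carry most of the tensile load of the extracellular matrix. Fibrillar collagens (types I, III and V) form the banded fibres around muscle bundles that thicken in a scar, and in the heart they come mainly from fibroblasts. Type IV forms the sheet of the basement membrane around each cardiomyocyte and capillary, type VI forms beaded filaments between that sheet and the fibres, and types XV and XVIII (the multiplexins) sit at the basement membrane. The FACIT collagens coat fibrils, and types XIII and XXIII span the cell membrane. In bulk tissue, fewer cells of a type and less RNA per cell cannot be told apart.

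By FPKM over all 37 libraries, 8 fibrillar genes made up 41.9% of the members' summed mean level, and 6 type IV genes made up 34.3%. The 4 type VI genes held 13.9%, the 2 multiplexins 5.51%, the 4 FACIT genes 2.14%, and the 2 short-chain genes of type VIII 1.64%. The 2 transmembrane genes held 0.468% and Col28a1 0.102%. The matrix of these hearts was thus represented by few genes, with basement membrane and fibril chains at similar levels per length. The highest mean level was that of Col4a1 (57.3 FPKM), followed by Col3a1 (55.7 FPKM), Col4a2 (43.3 FPKM) and Col1a1 (33.8 FPKM). Col6a1 (25.6 FPKM), Col1a2 (21.8 FPKM), Col15a1 (14.9 FPKM) and Col6a2 (12.7 FPKM) came next, and the other 21 members had means of 0.224 to 8.10 FPKM. When Adr 3-day replicate 3 was left out, the mean of Col3a1 was 48.3 FPKM and that of Col1a1 23.8 FPKM, below Col6a1 with 24.8 FPKM, and fibrillar genes made up 37.8% and type IV genes 37.2% of the summed level.

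**Figure D1:**
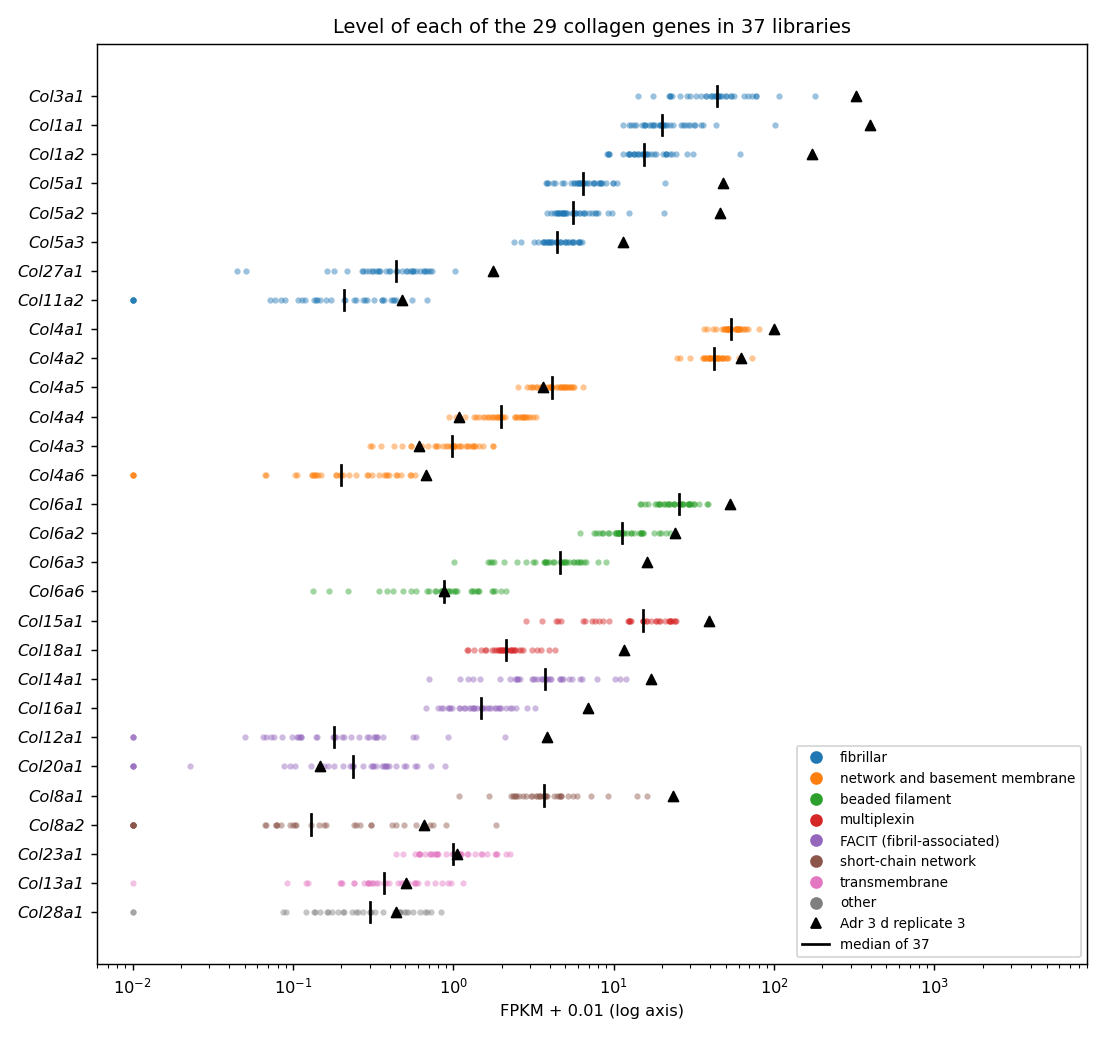
FPKM of each collagen gene in every library (log axis, 0.01 added), genes grouped by collagen family, with a line at the median and a triangle for Adr 3-day replicate 3. Col4a1, Col3a1 and Col4a2 have the highest means (57.3, 55.7 and 43.3 FPKM), and the triangle is the rightmost point of all 7 fibrillar genes that were tested.

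A total of 28 members passed the filter of at least 0.5 FPKM in at least 4 libraries, and Col11a2 did not. Changes were tested with limma on log2(FPKM + 1) over the 16579 genes that passed, with Benjamini-Hochberg adjustment within each comparison and a threshold of 0.05. Adding 1 makes a change smaller for genes of low FPKM. Without Adr 3-day replicate 3, 16458 genes and 27 members were tested, since Col4a6 no longer passed.

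Against Naïve, few collagen transcripts passed the test, and those that did were lower, in Arrest libraries of days 0.5 and 1. On Arrest day 0.5, 1 of 28 members was called, Col6a6, where 3.2% of all tested genes were called. On Arrest day 1, 1 of 28 was called, Col15a1, against 7.11% of all genes. On Arrest day 3, 0 of 28 were called against 0.139% of all genes, and on Arrest day 7, 0 of 28 against 0%. In Adr mice, 0 of 28 were called on days 0.5, 1, 3 and 7, where 0.187%, 0.627%, 0% and 0% of all genes were called. The members' share on Arrest days 0.5 and 1 was close to or below the share of all genes, so collagen genes as a group were not called more often than others. At an unadjusted p under 0.05, limma gave 4, 7, 4 and 1 of 28 members for Arrest days 0.5, 1, 3 and 7, and 2, 0, 2 and 3 for the Adr days. The same criterion gave 852 to 3601 of the 16579 genes in these 8 comparisons.

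Without Adr 3-day replicate 3, the call of Col6a6 on Arrest day 0.5 stood beside 5.5% of all genes. On Arrest day 1, 3 of 27 members were called, Col15a1, Col14a1 and Col6a6, all lower, against 10.4% of all genes. No member was called on Arrest days 3 and 7 (all genes 1.14% and 0%) or in Adr on days 0.5, 1, 3 and 7 (all genes 1.43%, 2.53%, 0% and 0%), where limma gave 8 and 1, and 2, 4, 1 and 3 of 27 members at an unadjusted p under 0.05. Of the 16458 genes, 2661 and 978, and 2668, 2885, 1199 and 1187 met the same criterion. Removing this 1 library thus raised the number of genes called in several comparisons, and that of the members only on Arrest day 1 among those with Naïve.

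Col6a6 codes for a chain of type VI collagen that is expressed at a low level beside Col6a1, Col6a2 and Col6a3. Its RefSeq promoter is shown because Col6a6 was the gene with the firmest call. The stretch lies at chr9:105828161-105828335 (GRCm38.p6, minus strand), upstream of the gene in sequence without annotated exons, and ends 75 bases before the RefSeq start. The GC box GGGCGG and its reverse complement CCGCCC are in capitals.
Col6a6: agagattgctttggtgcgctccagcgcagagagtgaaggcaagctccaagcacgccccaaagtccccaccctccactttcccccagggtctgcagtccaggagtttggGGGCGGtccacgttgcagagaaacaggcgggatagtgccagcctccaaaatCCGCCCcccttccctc
Col6a6 measured 1.42, 1.04, 0.897, 1.98 and 0.576 FPKM in the Naïve libraries and 0.537, 0.123, 0.211 and 0.158 FPKM in those of Arrest day 0.5. All 4 Arrest libraries lay below all 5 Naïve libraries, and these levels came from 19 to 69 fragments against 71 to 247 fragments. The group means were 0.257 ± 0.190 FPKM (SD, n = 4) and 1.18 ± 0.540 FPKM (SD, n = 5), and the change was -0.77 on the log2(FPKM + 1) scale (SE 0.16, 95% interval -1.11 to -0.44, limma adjusted p = 0.00827). Without Adr 3-day replicate 3 the adjusted p was 0.00558.

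The level of Col6a6 was higher again at later times in Arrest. Its values were 0.333, 0.409, 0.473 and 0.849 FPKM on Arrest day 1, 0.375, 0.965, 0.926 and 1.01 FPKM on day 3, and 0.676, 1.76, 1.39 and 1.02 FPKM on day 7. The day 1 and Naïve libraries overlapped only through the highest day 1 and the lowest Naïve library, and by day 7 the libraries lay within the Naïve range. The changes from Naïve were -0.50 (adjusted p = 0.0557, and 0.0445 without Adr 3-day replicate 3), -0.25 (adjusted p = 0.535) and 0.03 (adjusted p = 1) on the log2 scale.

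In Adr mice, Col6a6 measured 0.823, 1.29, 0.824 and 0.757 FPKM on day 0.5 and 0.764, 0.867, 0.690 and 0.838 FPKM on day 1. It measured 1.28, 1.44, 0.859 and 0.931 FPKM on day 3 and 1.72, 1.34, 2.11 and 1.81 FPKM on day 7. None of the 4 Adr groups differed from Naïve by the test, with changes of -0.25 to 0.36 on the log2 scale. The 4 Arrest libraries of day 0.5 lay below all 4 Adr libraries of that day, but the difference of -0.62 on the log2 scale (95% interval -0.97 to -0.27) did not pass limma's adjustment (adjusted p = 0.742). Col6a6 was also the only member with a difference among the 9 groups in limma's F test (adjusted p = 0.00298, 1 of 28 members, against 3.89% of all genes). Without Adr 3-day replicate 3 that test called Col6a6 (adjusted p = 0.00161) and Col4a4 (adjusted p = 0.0161), 2 of 27 members against 6.25% of all genes.

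Col15a1 codes for the chain of type XV collagen, a multiplexin of the basement membrane of muscle and capillaries. Its RefSeq promoter, chr4:47207762-47208011 (GRCm38.p6, plus strand), is shown as that of the other member called with all 37 libraries, the last base being the one before the start. It held none of the GC, CCAAT and TATA letters searched for, so nothing is in capitals.
Col15a1: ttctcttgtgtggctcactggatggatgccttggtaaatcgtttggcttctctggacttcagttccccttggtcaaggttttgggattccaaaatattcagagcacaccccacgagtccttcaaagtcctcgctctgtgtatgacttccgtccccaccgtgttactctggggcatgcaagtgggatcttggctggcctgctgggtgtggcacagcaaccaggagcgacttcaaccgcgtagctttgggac
Col15a1 measured 20.9, 22.7, 17.02, 12.5 and 19.2 FPKM in Naïve libraries, 9.29, 4.37, 12.4 and 6.38 FPKM on Arrest day 0.5, and 3.56, 4.70, 2.84 and 12.3 FPKM on Arrest day 1. Every library of these Arrest groups lay below the lowest Naïve library, and on day 1 replicate 4 was well above the other 3. On day 1 the mean was 5.85 ± 4.36 FPKM (SD, n = 4), from 233 to 1324 fragments, against 18.5 ± 3.95 FPKM (SD, n = 5) in Naïve. The change was -1.66 on the log2 scale (SE 0.43, 95% interval -2.54 to -0.78, limma adjusted p = 0.0167), and -1.15 on day 0.5 (adjusted p = 0.135). The day 1 call was lost without Arrest 1-day replicate 1 (adjusted p = 0.0656) or without replicate 3 (adjusted p = 0.0841).

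Later Arrest libraries held more Col15a1, with 4.45, 12.6, 18.3 and 23.6 FPKM on day 3 and 15.2, 16.2, 12.8 and 15.2 FPKM on day 7. The day 3 libraries spanned nearly the whole range seen in Arrest, while those of day 7 were close together. In Adr mice the values were 19.4, 24.4, 6.63 and 8.52 FPKM on day 0.5, 22.8, 22.4, 8.11 and 7.29 FPKM on day 1, 15.3, 24.2, 39.1 and 7.66 FPKM on day 3, and 22.1, 21.9, 18.4 and 15.98 FPKM on day 7. On Adr days 0.5 and 1, 2 libraries were within or above the Naïve range and 2 were below it. Arrest and Adr on day 1 overlapped, and their difference of -1.25 on the log2 scale (95% interval -2.17 to -0.32) did not pass limma's adjustment (adjusted p = 0.630).

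Col14a1, a FACIT chain that decorates fibrils of type I collagen, had a similar order of levels. It measured 6.11, 6.35, 4.03, 4.59 and 3.54 FPKM in Naïve, 1.09, 1.23, 3.71 and 1.94 FPKM on Arrest day 0.5, and 2.47, 1.46, 0.695 and 2.50 FPKM on Arrest day 1. The libraries of Arrest day 1 lay below all Naïve libraries, while 1 library of day 0.5 lay among them. The change on day 1 was -1.12 on the log2 scale, with an adjusted p of 0.0993 with all 37 libraries and 0.0495 without Adr 3-day replicate 3. On day 0.5 it was -1.04 (adjusted p = 0.175). On Arrest day 3 the values were 1.32, 2.60, 4.60 and 10.9 FPKM and on day 7 they were 3.99, 10.2, 3.54 and 4.76 FPKM, so both days reached above the Naïve range. Adr libraries measured 3.20, 7.88, 3.77 and 3.35 FPKM (day 0.5), 4.83, 3.89, 2.25 and 2.42 FPKM (day 1), 2.50, 5.47, 17.2 and 3.14 FPKM (day 3), and 11.8, 5.27, 3.75 and 3.09 FPKM (day 7).

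Col4a4, which pairs with Col4a3 in a type IV network best known from the kidney, was lowest in Arrest on day 3. It measured 2.66, 1.80, 1.74, 2.62 and 3.27 FPKM in Naïve, 1.02, 1.86, 2.04 and 1.33 FPKM on Arrest day 0.5, 1.97, 1.52, 1.63 and 0.933 FPKM on day 1, 1.57, 1.17, 1.08 and 1.65 FPKM on day 3, and 2.71, 2.98, 1.88 and 2.43 FPKM on day 7. Only the day 3 libraries lay wholly below the Naïve libraries. The changes on days 0.5, 1 and 3 were -0.41, -0.44 and -0.52 on the log2 scale and missed the threshold (adjusted p = 0.173, 0.105 and 0.162). In Adr it measured 1.75, 1.89, 2.56 and 2.83 FPKM on day 0.5, 2.10, 1.44, 1.38 and 1.98 FPKM on day 1, 2.73, 1.96, 1.07 and 2.47 FPKM on day 3, and 3.12, 2.79, 2.42 and 2.93 FPKM on day 7. The lowest Adr 3-day value was that of replicate 3, the library in which most fibrillar genes were highest.

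**Figure D2:**
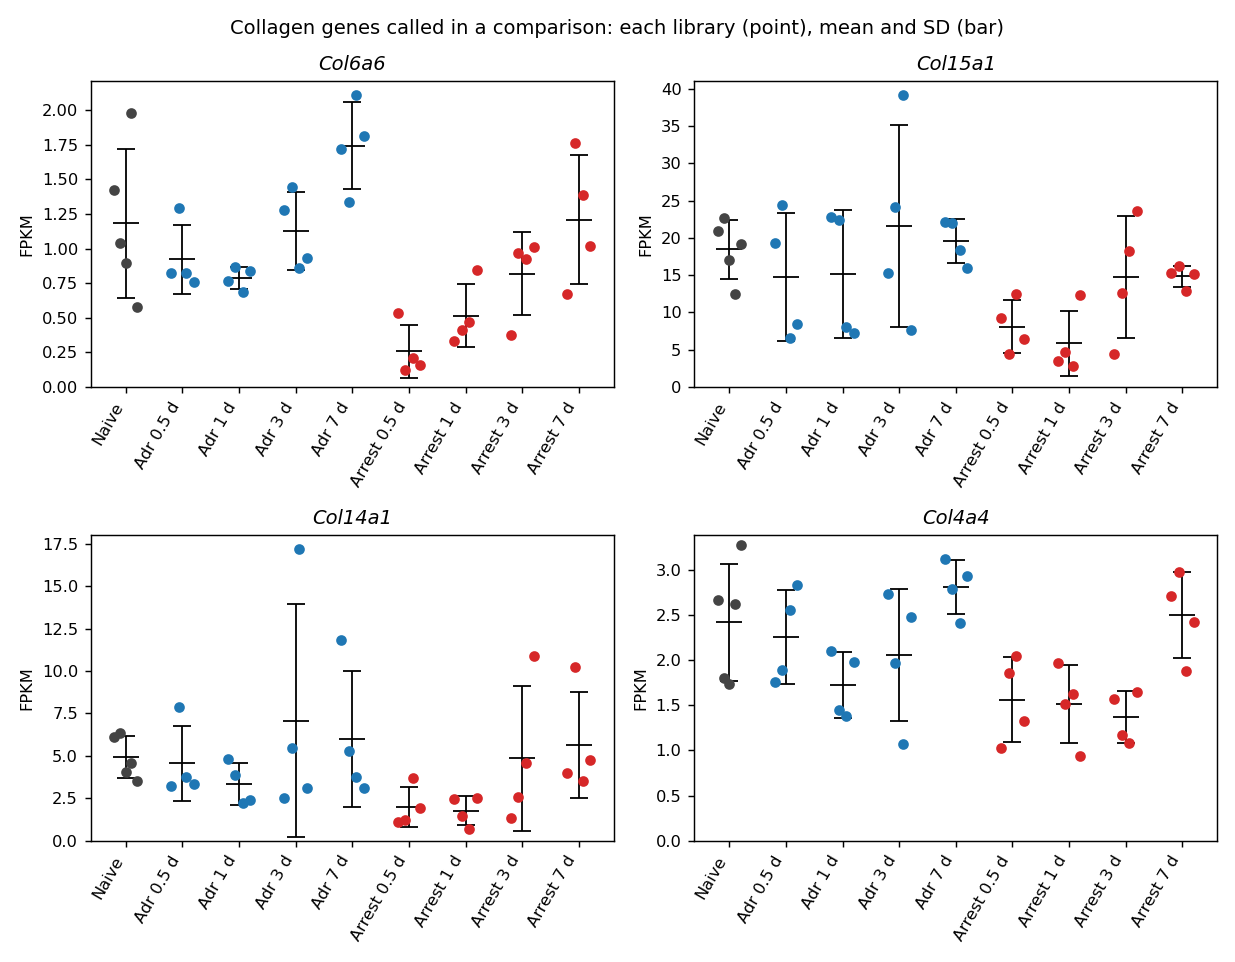
FPKM of Col6a6, Col15a1, Col14a1 and Col4a4 by group, with 1 point per library and the mean ± SD (n = 5 in Naïve, 4 in each other group). The Arrest 0.5-day points of Col6a6 (0.123 to 0.537 FPKM) lie below all Naïve points, and the Arrest 1-day points of Col15a1 (2.84 to 12.3 FPKM) lie below the lowest Naïve point.

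Changes of the whole set were small. Over the 28 members tested, the median change from Naïve was -0.09, -0.21, 0.12 and 0.04 on the log2 scale on Arrest days 0.5, 1, 3 and 7, beside 0.03, 0.03, 0.01 and 0.02 over all genes. In Adr it was 0.10, -0.02, 0.19 and 0.19, beside 0.04, 0.04, 0.02 and 0.01. On Arrest day 1, 6 of 28 members had a change above 0 and 22 had not. The value for Adr day 3 turned to -0.13 without replicate 3, with 8 of 27 members above 0 in place of 21 of 28. No other comparison with Naïve changed the sign of its median when that library was left out.

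By family, all 4 type VI genes had changes below 0 on Arrest day 1, from -0.93 to -0.40 with a median of -0.47 on the log2 scale, and so had both multiplexins (Col18a1 -0.41, adjusted p = 0.432). None of the 4 type VI genes was called there with all 37 libraries. Col6a1 measured 19.97 ± 7.23 FPKM (SD, n = 4) there and 26.3 ± 3.37 FPKM (SD, n = 5) in Naïve, and Col6a2 measured 9.20 ± 3.86 against 11.9 ± 1.16 FPKM. Col6a3, the large chain of the usual type VI trimer, measured 1.68, 1.63, 0.996 and 4.23 FPKM against 3.75 to 6.15 FPKM in Naïve, a change of -0.93 on the log2 scale (95% interval -1.68 to -0.18, adjusted p = 0.121). The summed level of the 4 type VI genes ranged from 22.1 to 49.9 FPKM on Arrest day 1 and from 39.6 to 52.2 FPKM in Naïve, so the groups overlapped through replicate 4.

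The fibrillar genes showed no called change at any time. Col3a1, the chain of type III collagen, measured 49.9, 47.3, 34.8, 44.8 and 37.6 FPKM in Naïve and 28.8, 17.7, 14.1 and 53.5 FPKM on Arrest day 1. Arrest 1-day replicate 4 was above every Naïve library and the other 3 below all of them, and the 95% interval of the change ran from -1.84 to 0.35 on the log2 scale. Col1a1, the main chain of type I collagen, measured 20.7, 20.1, 15.4, 17.03 and 15.6 FPKM in Naïve and 18.04, 13.8, 11.5 and 29.2 FPKM on Arrest day 1, with an interval from -1.24 to 1.15. Intervals this wide leave a change of 1 log2 unit in either direction possible for Col1a1. Across the remaining groups Col1a2 had means of 13.6 to 28.5 FPKM in all but Adr day 3, where the mean was 52.6 ± 79.2 FPKM (SD, n = 4) and fell to 12.98 ± 3.31 FPKM (SD, n = 3) without replicate 3.

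The abundant type IV chains were the steadiest of the high members. Col4a1 had group means of 48.0 to 67.5 FPKM, a ratio of 1.41 between the highest (Arrest day 0.5) and the lowest (Adr day 1), and Col4a2 had means of 34.6 to 51.1 FPKM, a ratio of 1.48. On Arrest day 1 Col4a1 measured 50.7, 61.3, 64.1 and 41.4 FPKM against 51.8, 60.5, 61.6, 58.7 and 49.1 FPKM in Naïve, and the groups overlapped. Its change was -0.07 on the log2 scale (95% interval -0.48 to 0.35), and that of Col4a2 was -0.06 (-0.44 to 0.33). Col6a1 and Col6a2 came close to them, with ratios of 1.55 and 1.69. Col3a1 and Col1a1 had ratios of 3.83 and 6.23 between their highest and lowest group means. For both genes the highest mean was that of Adr day 3, set by 1 library described below, and the other groups overlapped.

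**Figure D3:**
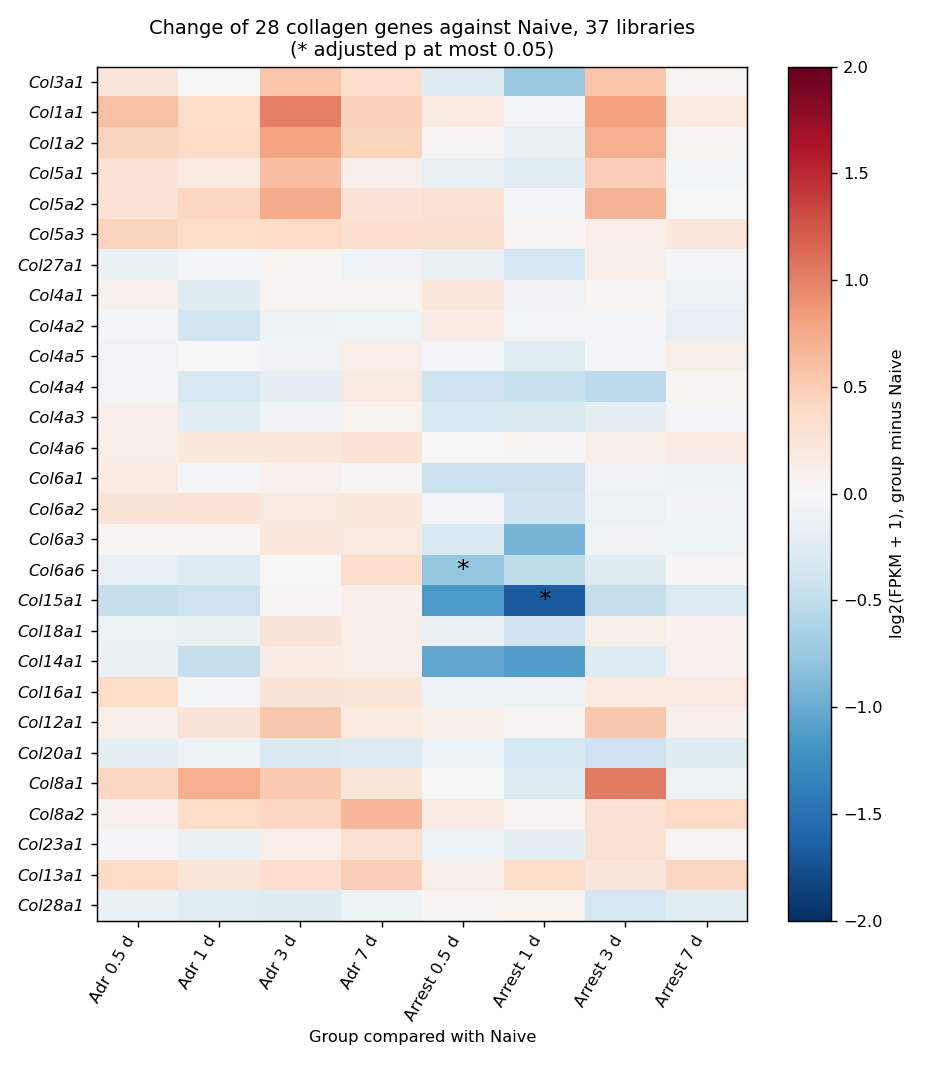
Change of each tested collagen gene from Naïve on the log2(FPKM + 1) scale (colour) in the 8 Adr and Arrest groups, genes grouped by family, with * for an adjusted p of at most 0.05. The marks fall on Col6a6 in Arrest day 0.5 (-0.77) and on Col15a1 in Arrest day 1 (-1.66), and no fibrillar gene carries one.

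Among low members, Col8a1, a short-chain collagen of vessel walls, measured 16.1, 3.42, 3.85 and 13.9 FPKM on Arrest day 3 against 2.71 to 3.62 FPKM in Naïve. The change of 1.03 on the log2 scale (95% interval 0.18 to 1.88) had an adjusted p of 0.253, and of 0.0917 without Adr 3-day replicate 3. Replicates 1 and 4 of that group set the mean, while the other 2 lay near the Naïve range. The transmembrane genes Col13a1 and Col23a1 had group means of 0.156 to 0.638 and 0.749 to 1.48 FPKM. Col8a2, Col12a1, Col20a1, Col28a1, Col4a6 and Col27a1 had means over all libraries of 0.240 to 0.467 FPKM and no called change.

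No collagen gene was called between Arrest and Adr at the same time. Among the 28 members, 0 were called on days 0.5, 1, 3 and 7, where 0%, 0%, 0% and 0.00603% of all genes were called, and at an unadjusted p under 0.05 limma gave 3, 4, 0 and 0 members and 419 to 1093 genes. Without Adr 3-day replicate 3 the counts were again 0 of 27, with 0%, 0%, 0% and 0% of all genes called. In that fit limma gave 6, 5, 7 and 0 of 27 members at an unadjusted p under 0.05, beside 767, 1394, 936 and 518 of the 16458 genes. The interval for Col6a6 on day 0.5 (-0.97 to -0.27) excluded 0 before adjustment, so the absence of a call does not show equal levels. Adr and Arrest share the Naïve libraries in the comparisons above, and their values there are not independent.

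Day 1 was also compared with day 7 within each arm. In Arrest 0 of 28 members were called, where 1.88% of all genes were, and in Adr 0 of 28, where 0.0422% were. In that order, 5 and 3 members passed an unadjusted p under 0.05 in limma, beside 2459 and 1604 of the 16579 genes. Without Adr 3-day replicate 3 both counts were 0 of 27, with 3.97% and 0.383% of all genes called. At an unadjusted p under 0.05, limma then gave 7 and 3 members, beside 2876 and 1907 of the 16458 genes. Col15a1 had a change of -1.39 between Arrest days 1 and 7 (day 1 minus day 7, 95% interval -2.32 to -0.46, adjusted p = 0.108), the largest size of the members called elsewhere, and Col6a6 had -0.53 (adjusted p = 0.105).

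A large part of the variation in fibrillar genes lay in few libraries. Col1a1 measured 16.6, 19.6, 394 and 12.8 FPKM on Adr day 3, 27.2, 14.9, 23.3 and 100.97 FPKM on Arrest day 3 and 43.2, 21.4, 22.4 and 17.5 FPKM on Adr day 7. Each of these groups held 1 library far above the rest, namely Adr 3-day replicate 3, Arrest 3-day replicate 4 and Adr 7-day replicate 1. The same libraries were the 3 highest of the 37 in Cthrc1, a secreted protein of activated fibroblasts, with 64.6, 34.1 and 8.69 FPKM against at most 2.46 FPKM in the other 34. They were singled out after their values were seen, so what follows describes these libraries and is no comparison of groups.

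Against the median of the other 34 libraries, Col1a1 was 20.02 times as high in Adr 3-day replicate 3, 5.13 times in Arrest 3-day replicate 4 and 2.19 times in Adr 7-day replicate 1. Col3a1 was 7.497, 4.16 and 2.49 times as high, with 323, 179 and 107 FPKM against 14.1 to 77.1 FPKM in the other 34. Of the chains of type V collagen, which sit inside fibrils of type I and limit their width, Col5a1 and Col5a2 followed the first 2 libraries more than the last. Col5a1 was 7.51, 3.26 and 1.17 times and Col5a2 8.67, 3.87 and 1.72 times as high. Col5a3 was 2.61, 1.26 and 1.21 times as high, and its last 2 values lay within the 2.38 to 6.32 FPKM of the other 34. Col12a1, a FACIT chain at or near 0 in most libraries (0 to 0.915 FPKM in the other 34), reached 3.81, 2.08 and 0.314 FPKM. By contrast, Col4a1 was 1.87, 1.22 and 0.957 times and Col4a2 1.47, 1.07 and 0.880 times as high, Col6a6 was 1.00 times as high in Adr 3-day replicate 3, and Col4a4 was at 0.546 times the median there.

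Summed over the family, fibrillar genes reached 996, 389 and 205 FPKM in these 3 libraries and 47.6 to 161 FPKM in the other 34. Type IV genes reached 168, 117 and 98.2 FPKM in them and 69.7 to 181 FPKM in the other 34, so the fibrillar sum lay above that range in all 3 libraries and the type IV sum in none. The FACIT sum also lay above it in all 3 (28.05, 16.3 and 14.6 FPKM against at most 13.5 FPKM), the multiplexin sum in the first 2 (50.7 and 27.9 against at most 26.5 FPKM), and the type VI and short-chain sums in Adr 3-day replicate 3 alone (94.4 against at most 67.6 FPKM, and 24.1 against at most 16.1 FPKM). The upper end of the type IV range, 181 FPKM, was set by Arrest 0.5-day replicate 2 alone. The next highest type IV sum among the 34 was 149 FPKM on Arrest day 3, below the 168 FPKM of Adr 3-day replicate 3. Adr 3-day replicate 3 had a low mitochondrial share. Its ratios were therefore also taken after each library's FPKM was divided by that library's non-mitochondrial share of fragments on genes. This gave 16.4 for Col1a1, 6.15 for Col3a1 and 1.499 for Col4a1. The total used to scale the deposited FPKM was 1.41 times the fragments on genes in that library and 0.889 to 1.10 times in the others. That difference was not removed, so these ratios are no full rescaling to non-mitochondrial fragments. Of the 28 members, 17 were highest of the 37 libraries in Adr 3-day replicate 3, where 15% of all tested genes were. They were 7 of 7 fibrillar, 3 of 4 type VI, 2 of 2 multiplexin, 3 of 4 FACIT, 1 of 2 short-chain and 1 of 6 type IV genes. That type IV gene was Col4a6, which passed the filter only through this library, so its place in the count carries no weight. Among the other 36 libraries, 9 of 28 members were highest in Arrest 3-day replicate 4 (4.24% of all genes), of which 6 were fibrillar. Among the other 35, 9 of 28 were highest in Adr 7-day replicate 1 (4.39% of all genes), and Col4a6 was again counted there.

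Col3a1 is the fibrillar member of highest mean level, and its RefSeq promoter is shown beside those of Col6a6 and Col15a1. It lies at chr1:45311288-45311537 (GRCm38.p6, plus strand), ending at the base before the start, with the letters TATAAA in capitals.
Col3a1: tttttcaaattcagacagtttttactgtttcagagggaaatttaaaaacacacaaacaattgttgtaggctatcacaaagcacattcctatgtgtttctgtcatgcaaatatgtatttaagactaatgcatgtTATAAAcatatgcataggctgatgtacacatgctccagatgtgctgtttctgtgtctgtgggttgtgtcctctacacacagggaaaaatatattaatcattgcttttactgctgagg
RefSeq held a promoter for 24 of the 29 members, and 3 sets of letters were searched for on both strands of the 250 bases before each start. GGGCGG (reverse complement CCGCCC) was found in 15 of 24 members (62.5%) and in 32.7% of 32851 promoters. CCAAT (reverse complement ATTGG) was found in 7 of 24 (29.2%, all promoters 33.8%), and TATAAA (reverse complement TTTATA) in 3 of 24 (12.5%, all promoters 12.4%). These matches describe the letters alone.

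Markers of activated fibroblasts and macrophages were read beside these collagen levels. Their summed levels were highest in Adr 3-day replicate 3, and not all of them stood out in the other 2 libraries. Periostin (Postn), a matrix protein of activated fibroblasts, measured 120 FPKM in Adr 3-day replicate 3, 90.6 FPKM in Arrest 3-day replicate 4 and 36.2 FPKM in Adr 7-day replicate 1, beside a median of 4.27 FPKM and a maximum of 51.6 FPKM (Arrest 3-day replicate 1) in the other 34. The summed level of 8 myofibroblast markers was 363, 235 and 116 FPKM, against 12.4 to 133 FPKM, so the sum of Adr 7-day replicate 1 lay within the range of the other 34. Macrophage markers (7 genes) summed to 576, 279 and 127 FPKM against 86.2 to 306 FPKM, above that range in Adr 3-day replicate 3 alone, and 6 of the 7 were highest of the 37 libraries in Adr 3-day replicate 3. Cd68, a lysosomal protein of macrophages, measured 157, 42.03 and 10.8 FPKM beside a median of 12.8 FPKM in the other 34. Fibroblast markers (15 genes) summed to 1339, 1324 and 1594.5 FPKM, within the 885 to 1948 FPKM of the other 34, and 0 of 11 endothelial markers were highest in Adr 3-day replicate 3. Myl7, the atrial myosin light chain, measured 225 FPKM in Adr 3-day replicate 3 and 0 to 445 FPKM in the other 34 libraries. The part of these cells in the collagen levels was not tested.

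Many genes that act on collagen were also highest in Adr 3-day replicate 3. Of the 22 tested genes for chain modification and folding, 14 were highest there, and of 13 for cleavage and crosslinking, 10 were, read against the 15% of all genes. Serpinh1, the collagen chaperone of the endoplasmic reticulum, measured 425 FPKM there and 52.3 to 225 FPKM in the 34 libraries outside the 3 named. Lox, which crosslinks collagen and elastin, measured 45.7 FPKM there and 30.3 FPKM in Arrest 3-day replicate 4, and reached 42.6 FPKM among the other 34. Loxl2, a relative of Lox, measured 39.9 and 22.01 FPKM in the same 2 libraries and 3.30 to 12.3 FPKM in the other 34. The other matrix lists had 8 of 12 degradation genes, 8 of 20 of the TGF-beta pathway, 6 of 18 fibril partners, 6 of 13 basement membrane partners and 3 of 8 receptors highest in that library.

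**Figure D4:**
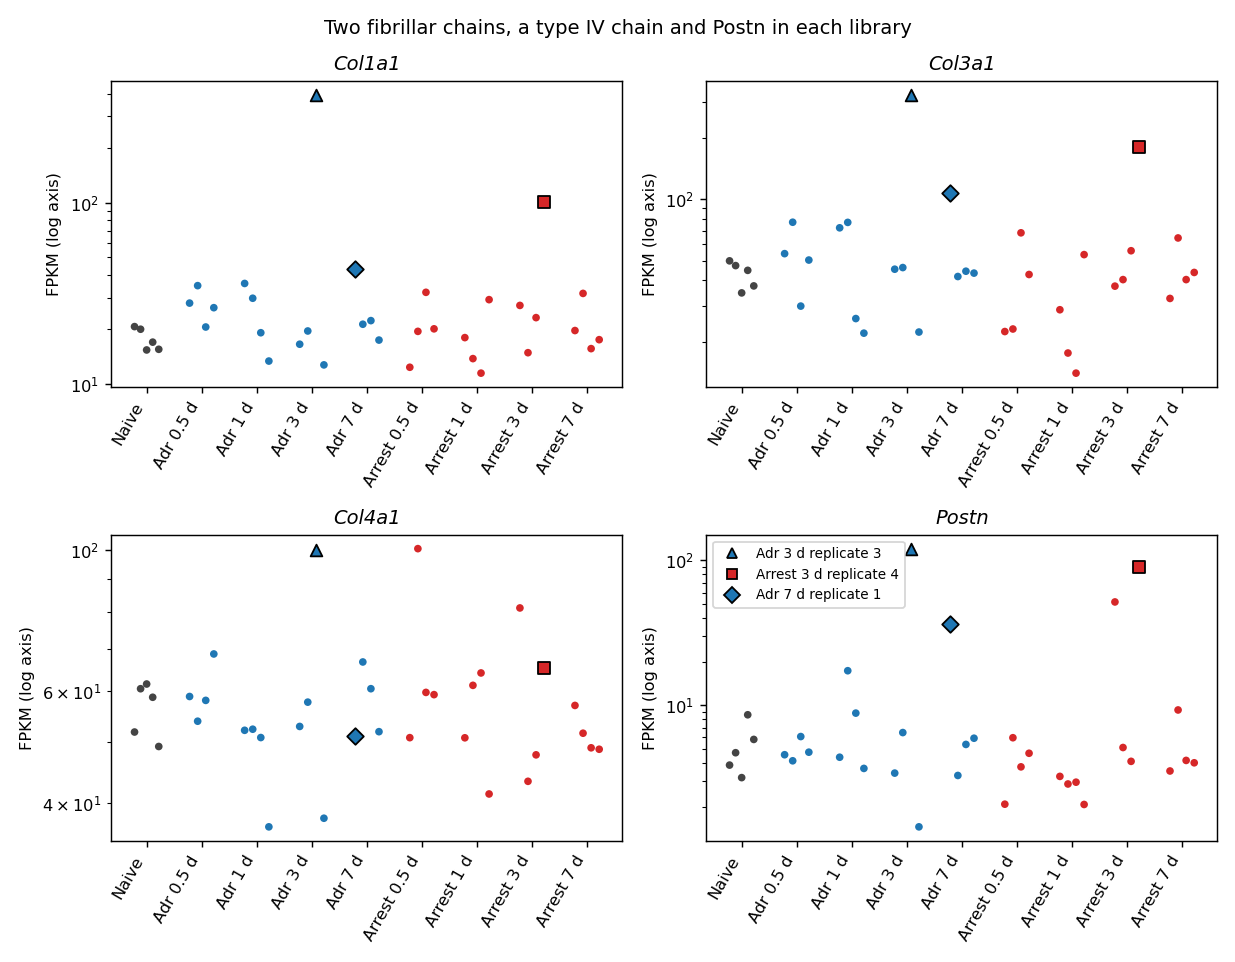
FPKM of Col1a1, Col3a1, Col4a1 and Postn by group (log axes, 1 point per library), with marks for Adr 3-day replicate 3 (triangle), Arrest 3-day replicate 4 (square) and Adr 7-day replicate 1 (diamond). The 3 marks stand above all other libraries for Col1a1 (394, 100.97 and 43.2 FPKM) and Col3a1 (323, 179 and 107 FPKM) and lie among the others for Col4a1. For Col4a1 the triangle (99.8 FPKM) lies just below the highest library, Arrest 0.5-day replicate 2 (100.4 FPKM).

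Chains that assemble in 1 trimer were set side by side by FPKM. The ratio of Col1a1 to Col1a2, whose products join in type I collagen, was 0.987 to 1.74 in the 34 libraries other than the 3 named and 2.30 in Adr 3-day replicate 3. Col1a1 itself ranged from 11.5 to 35.9 FPKM and Col1a2 from 9.12 to 28.6 FPKM in those 34, and only that library lay outside the range of their ratio. The ratio of Col1a1 to Col3a1 was 1.22 there and 0.365 to 0.844 in those 34. It was 0.546 to 0.816 on Arrest day 1 and 0.380 to 0.444 in Naïve, with no overlap between the groups. The libraries of Arrest day 0.5 (0.469 to 0.844) and Adr day 0.5 (0.453 to 0.689) also lay above the Naïve range. These differences were noticed after the values were seen and were not tested.

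Col4a1 and Col4a2 lie head to head, and in RefSeq (GRCm38.p6) their annotated starts overlap by 22 bases on opposite strands. The counting of strands is not given in the sources used here, so fragments in that overlap could go to either gene. Their ratio was 1.09 to 1.5003 in the same 34 libraries and 1.61 in Adr 3-day replicate 3. Col4a3 and Col4a4, another head-to-head pair, had a ratio of 0.212 to 1.10 at their lower counts. The ratio of Col6a1 to Col6a2 was 1.37 to 2.84 over all libraries. Col6a1 to Col6a3 ranged from 3.29 to 14.6 and was 7.09 to 14.6 on Arrest day 1 against 5.14 to 6.79 in Naïve, a gap also noticed after the values were seen. The ratios of Col4a1 to Col4a2, Col4a3 to Col4a4 and Col6a1 to Col6a2 overlapped between Arrest day 1 and Naïve.

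**Figure D5:**
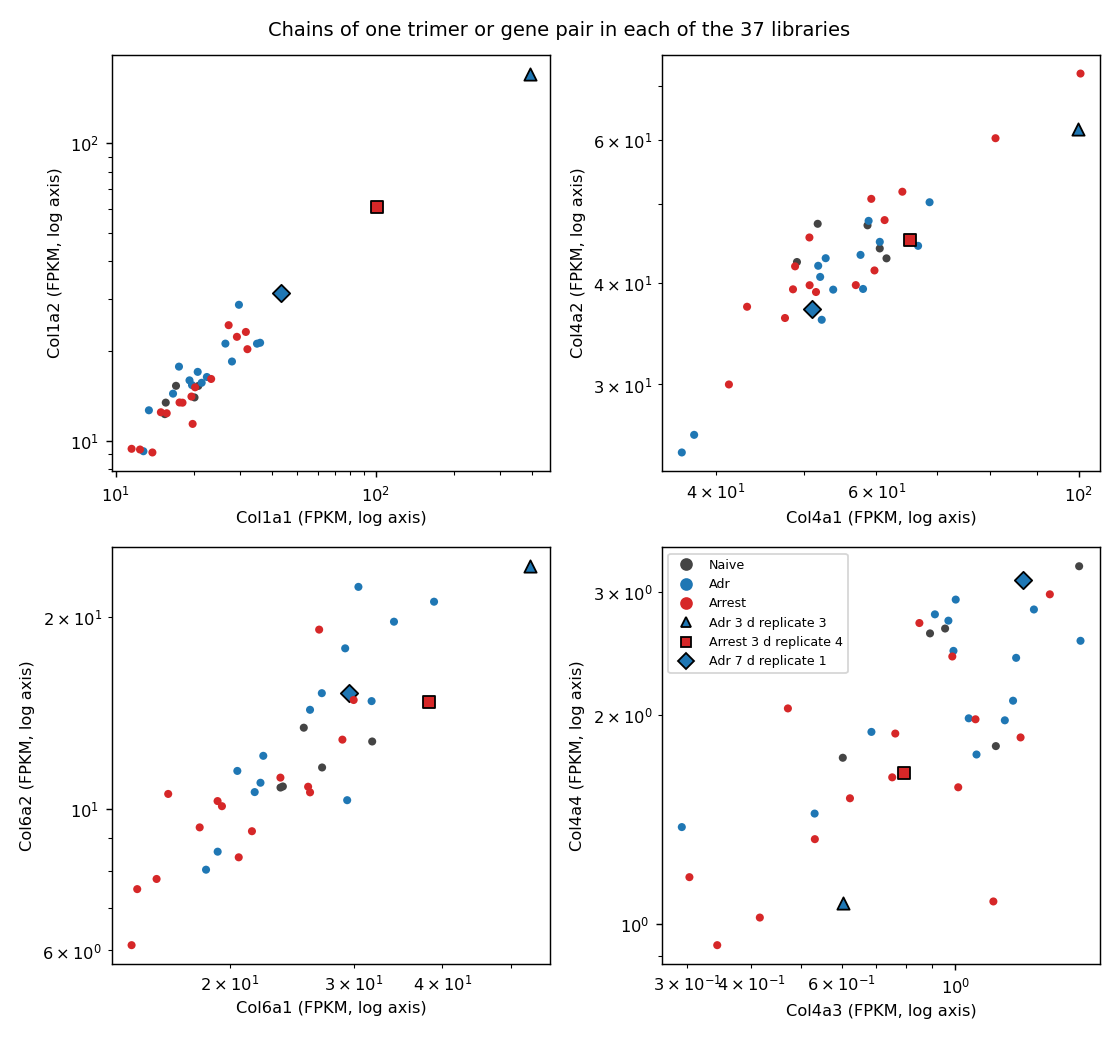
FPKM of chain pairs against each other (log axes, 1 point per library) for Col1a1 and Col1a2, Col4a1 and Col4a2, Col6a1 and Col6a2, and Col4a3 and Col4a4. The Col4a1 to Col4a2 ratio spans 1.09 to 1.61 over the 37 libraries and the Col4a3 to Col4a4 ratio 0.212 to 1.10.

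Genes that process, bind or break down collagen were read from lists drawn up for this purpose, with all 37 libraries unless stated. Counts in these lists and the marker lists below stand beside the share of all genes called. It was 3.2% on Arrest day 0.5, 7.11% on Arrest day 1 and 0.627% on Adr day 1. Without Adr 3-day replicate 3 it was 5.5%, 10.4% and 1.14% on Arrest days 0.5, 1 and 3, and 1.43% and 2.53% on Adr days 0.5 and 1. On Arrest day 0.5, 2 of 12 degradation genes were called higher, Mmp3 (stromelysin 1, 3.01 on the log2 scale, adjusted p = 0.000538) and Timp1 (an inhibitor of such proteases, 3.13, adjusted p = 0.0143). On Arrest day 1 they were called again (Mmp3 2.67, adjusted p = 0.000857, and Timp1 2.65, adjusted p = 0.0209) together with Timp4 (1.56, adjusted p = 0.0344), and 0 of 12 were lower. Mmp3 measured 0.776 to 5.32 FPKM in Naïve, 16.6 to 36.03 FPKM on Arrest day 0.5 and 7.02 to 17.7 FPKM on Adr day 0.5. Mmp3 and Timp1 were thus called higher in both Arrest groups in which a collagen gene was called lower, and a link between these calls was not tested. On Adr day 1, where no collagen gene was called, Mmp3 was called as well (2.24, adjusted p = 0.0179), 1 of 12 genes. When Adr 3-day replicate 3 was left out, Timp1 was also called higher on Adr day 0.5 (2.35, adjusted p = 0.0388), Adr day 1 (2.53, adjusted p = 0.0205) and Arrest day 3 (2.47, adjusted p = 0.0324), and 4 of 12 degradation genes were called on Arrest day 1, with Mmp14 added.

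Among collagen modification and folding genes, 1 of 22 was called on Arrest days 0.5 and 1, Fkbp10, a prolyl isomerase of procollagen, higher by 1.20 on both days (adjusted p = 0.0399 and 0.0234). The counts without Adr 3-day replicate 3 were 3 of 22 (Fkbp10, Plod3 and Tent5a) and 2 of 22 (Fkbp10 and Tent5a), all higher. Fkbp10 was then also called higher on Adr day 0.5 (adjusted p = 0.0235), Adr day 1 (adjusted p = 0.0124) and Arrest day 3 (adjusted p = 0.0317). Of 13 cleavage and crosslinking genes, 0 were called in any of the 14 comparisons, with or without that library. Of 18 fibril partners, 1 was called lower on each of the Arrest days 0.5 and 1, Ogn (osteoglycin), with -1.10 (adjusted p = 0.00405) and -1.32 (adjusted p = 0.000403). Ogn measured 67.9 to 98.1 FPKM in Naïve and 25 to 39.4 FPKM on Arrest day 1, without overlap. In the fit without Adr 3-day replicate 3, Lum (lower) and Thbs2 (higher, 0.96, adjusted p = 0.0237) were called beside Ogn on day 1.

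Basement membrane partners were lower where they were called, 2 of 13 on Arrest day 0.5 and 5 of 13 on day 1, beside 3.2% and 7.11% of all genes. The counts without Adr 3-day replicate 3 were 3 of 13 with Pxdn and 6 of 13 with Hspg2 (perlecan), beside 5.5% and 10.4% of all genes. On day 1, Lamb1, a laminin chain, changed by -0.63 (adjusted p = 0.00377), Sparcl1, a secreted collagen-binding protein, by -0.75 (adjusted p = 0.00484), and Pxdn, the peroxidase that crosslinks type IV collagen, by -0.92 (adjusted p = 0.0121). Col4a1 and Col4a2, the type IV chains of highest mean level, were not called on that day. Of 20 genes of the TGF-beta pathway, Ltbp1 and Ltbp4, which bind latent TGF-beta, were called lower on Arrest day 0.5 (-0.48 and -0.54, adjusted p = 0.0173 and 0.0231), and Ltbp1 on day 1 (-0.52, adjusted p = 0.00547). Of 8 receptors, Itga1, a subunit of a collagen-binding integrin, was called lower on day 1 alone (-0.56, adjusted p = 0.0268). Between Arrest days 1 and 7, Mmp3 (2.15) and Acvrl1 (0.44) were higher and Ogn (-1.02), Sparcl1 (-0.73) and Ltbp1 (-0.60) lower on day 1.

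Cell type markers were read beside the lower collagen calls of Arrest. The 15 fibroblast markers summed to 967 to 1172 FPKM in Naïve, 892 to 1113 FPKM on Arrest day 0.5 and 1190 to 1372 FPKM on Arrest day 1, and no gene of the list was called in the 14 comparisons with all 37 libraries. In the fit without Adr 3-day replicate 3, Lum (lumican, also a fibril partner) was called lower on Arrest day 1 (-0.91, adjusted p = 0.0443). In the myofibroblast list, 1 of 8 genes was called, Fap, lower on Arrest day 1 (-0.61, adjusted p = 0.0268). Endothelial markers moved both ways, with Kdr lower and Emcn and Esam higher on Arrest day 0.5, when Col6a6 was called, and on day 1 with Kdr and Cdh5 lower and Egfl7, Fabp4 and Esam higher among 11 genes. Of 9 pericyte and smooth muscle markers, Abcc9 and Mylk were lower on day 0.5, and Abcc9 and Myh11 on day 1. Myh11 was also called lower on Adr day 1 (-1.09, limma adjusted p = 0.0328), where no collagen gene was called. Of 5 tested epithelial markers, Krt14 and Krt8 were higher on day 0.5 and Krt14 on day 1, and of 5 tested skeletal muscle markers, Tnni2 was higher and Mylpf lower on day 1. When Adr 3-day replicate 3 was left out, the cardiomyocyte calcium channel gene Ryr2 was called lower on both days (-0.49 and -0.63). In that fit Abcc9 (-0.79 and -0.88) and Ryr2 (-0.49 and -0.71) were also called lower on Adr days 0.5 and 1. On Adr day 1, Kdr was then called lower (-0.81) and Egfl7 higher (0.42). Cardiomyocyte markers summed to 11899 to 14138 FPKM in Naïve and 13604 to 15508 FPKM on Arrest day 1. The part of these cells in the collagen changes was not tested.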

How the data were processed

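The deposited file is a table made by the authors that lists, for 56748 genes, the length, the symbol and an FPKM value in each of 37 libraries. Sequencing was by Novogene, with FastQC for read quality, HISAT2 for alignment and DESeq2 for the authors' own tests. The genome build, annotation, counter and strand are not given in the sources used here. Deposited FPKM times length was a whole number of fragments in 100% of values (tolerance 0.1), which gave the depths. Only 2.76% of 52073 shared genes have their GRCm38 coordinates in the table, so no coordinates of the table are printed. No 2 columns were identical (0 columns), and 0 per-sample columns were left unused.

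Values were fitted as log2(FPKM + 1) with limma 3.58.1 in R 4.3.3 (1 mean per group, eBayes with a trend), where 4 or more libraries reached 0.5 FPKM. There were 14 comparisons and an F test, adjusted by Benjamini-Hochberg within each, with a threshold of 0.05. In simulated data for Arrest day 1 against Naïve (15500 genes), 73% of genes changed by 1 log2 unit and 100% of those changed by 2 were called, and 5.46% of calls were of unchanged genes. The simulation gave every gene the same dispersion, held no outlying library and changed only genes with a mean of at least 1 FPKM. Collagen genes such as Col15a1 and Col3a1 varied more between libraries, so these shares are not the power of the tests for them. Genes given with values are the 8 members of highest mean, every member called in any comparison or in the F test, paired chains, and in the other lists the 3 genes with the smallest adjusted p in a comparison with calls. Col6a3, Col8a1, Col12a1, the type V chains and genes set beside the 3 libraries were chosen after their values were seen. The collagen genes and the gene lists were chosen with earlier results of these data known. Alternatives covered the pseudocount, filters, scaling, gene length, weights, voom, the libraries in the fit and each left-out library. Values at low fragment counts carry counting error that FPKM does not show.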

Additional observations from a re-analysis of the deposited data

Results flagged for a closer look

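For the 8 collagen genes of highest mean and the called genes, each group of 4 or 5 libraries was examined for a library far from the rest by Dixon's criterion. In 11 of 99 groups of values there was one. The criterion's rate of about 1 in 20 is for independent, normally distributed values. Several of these genes were flagged in the same library, so the 11 cannot be set against that rate. Of these 11, 3 fell on Adr 3-day replicate 3, 2 on Arrest 3-day replicate 4 and 2 on Adr 7-day replicate 1. Adr 3-day replicate 3 was far above the other 3 libraries of its group in Col1a1 (394 FPKM against 12.8 to 19.6), Col3a1 (323 FPKM against 22.4 to 46.2) and Col1a2 (171 FPKM against 9.20 to 15.4). Arrest 3-day replicate 4 was far above its group in Col1a1 (100.97 FPKM against 14.9 to 27.2) and Col3a1 (179 FPKM against 37.5 to 55.9). Adr 7-day replicate 1 was far above its group in Col3a1 (107 FPKM against 41.8 to 44.4) and Col1a2 (31.4 FPKM against 15.6 to 17.7).

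The other 4 were in other libraries, of which Arrest 3-day replicate 1 also had the highest Postn (51.6 FPKM) and Col8a1 (16.1 FPKM) of the 34 libraries outside those 3. Adr 0.5-day replicate 2 was high in Col6a6 (1.29 FPKM against 0.757 to 0.824) and in Col14a1 (7.88 FPKM against 3.20 to 3.77). Arrest 3-day replicate 1 was low in Col6a6 (0.375 FPKM against 0.926 to 1.01), and Adr 1-day replicate 4 was low in Col4a1 (36.7 FPKM against 50.7 to 52.3).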

How the results depend on the processing

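The changes of the called collagen genes kept their direction under every alternative run. The median change over the members turned in 2 comparisons without Adr 3-day replicate 3, from 0.19 to -0.13 for Adr day 3 against Naïve and from -0.11 to 0.15 for Arrest against Adr on day 3 (log2 scale). The count of collagen genes called on Arrest day 0.5 was 1 with all libraries, 0 when only the 2 groups entered the fit, and 2 (Col6a6, Col14a1) without the 3 libraries highest in Cthrc1, an alternative chosen after seeing the data. It was 1 with each library left out in turn. On Arrest day 1 the count was 1, and it was 2 with the replicate number as a block, 0 with the number in the sample description as a covariate, 4 with sample quality weights (Col14a1, Col15a1, Col6a3, Col6a6), 2 with only the 2 groups, and 2 without the 3 libraries. The description number was higher in every Naïve library than in every Arrest 1-day library, so that covariate cannot be fully separated from the group. Leaving out 1 library gave 0 to 3 genes, with 0 without Arrest 1-day replicate 1 or 3, 2 without Naïve replicate 5 or Arrest 1-day replicate 4, and 3 without Adr 3-day replicate 3. For Arrest day 1 against day 7 the count of 0 became 5 with weights and 1 (Col14a1) without the 3 libraries, and left-out libraries gave 0 to 1 (Col15a1 without Arrest 1-day replicate 4). For Adr day 1 against day 7 the count of 0 became 1 (Col6a6) with weights. The F test's count of 1 became 2 with values divided by fragments on genes, 2 with voom on recovered fragments, 3 with weights and 2 without the 3 libraries, and left-out libraries gave 1 to 2, with 2 without Naïve replicate 3, Adr 3-day replicate 1, 3 or 4, Arrest 0.5-day replicate 3, Arrest 1-day replicate 4 or Arrest 3-day replicate 1. The other 10 comparisons stayed at 0 throughout. The cause of these shifts was not tested. Over the alternatives, Col6a6 on Arrest day 0.5 had adjusted p-values of 0.00208 to 0.0814, and Col15a1 on Arrest day 1 of 0.00236 to 0.146. The replicate numbers did not pair the libraries, since deviations from the group means correlated with a mean r of -0.008 between same numbers and 0.003 between different numbers, and 4 of 36 libraries were closest to their own number.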
